A study of Mus musculus with 12 samples.

Results

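The transcripts described here come from 6 genes whose proteins are reported substrates or partners of the ubiquitin ligase UBE3A: Arhgef15, Rad23b, Kcnn2, Cdkn1b, Ring1 and Ptpa. The rule names the genes and uses no measured value, though they were proposed with earlier results of these data known. All 6 were found among the 13951 Ensembl gene identifiers of the deposited table. Polyadenylated RNA was measured in tissue from the ventral right hippocampus of C57BL/6J mice aged 12 to 16 weeks. The 12 libraries form 4 groups of 3: wild-type (WT) females, Angelman syndrome (AS) females, WT males and AS males. The labels do not state which allele the AS mice carry, nor any treatment, and the only batch they show is lane 7, which all libraries share. Replicate numbers follow the order of deposition and name libraries only. The labels do not spell out that each library is 1 animal, so the p-values below measure the spread between these libraries.

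UBE3A transfers ubiquitin to proteins and so marks many of them for the proteasome; loss of its maternal copy in neurons causes Angelman syndrome. Its ligase activity acts on the protein and not on the messenger RNA, so transcript levels show whether a substrate's message differs and do not measure its protein. The reported substrates and partners are unrelated in function. ARHGEF15 (ephexin-5) is a RhoA exchange factor that restrains excitatory synapse formation, RAD23B carries ubiquitinated proteins to the proteasome and helps XPC recognise DNA damage, and KCNN2 (SK2) is a calcium-activated potassium channel. CDKN1B (p27) inhibits cyclin-dependent kinases, RING1 (RING1A) is an E3 subunit of Polycomb repressive complex 1, and PTPA activates protein phosphatase 2A (PP2A). For Polycomb the ligase most often reported as a UBE3A substrate is RING1B, encoded by Rnf2, the paralogue of Ring1.

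Values are given as log2(abundance + 1), where abundance is the RSEM estimate back-transformed from the deposited log. It was read as a natural log of an abundance scaled for transcript length, which the sources used here do not state. Comparisons of level between genes rest on that reading. The read depth behind each value is unknown. Of 12 libraries, the one labelled WT female 1 had Xist at 0.35, within the 0.17 to 0.52 of the 6 male libraries, whereas the other 5 female libraries had 6.00 to 6.45. The mean of 22 choroid plexus genes was 3.15 to 5.13 in WT female 1, WT female 2, AS female 2 and AS male 2 and 1.57 to 2.06 in the other 8 libraries. Each sign of the 6 genes' AS minus WT differences that turned without the libraries high in these genes is given beside its result. Leaving them out makes WT female 3 the only WT female, compared with AS female 1 and AS female 3, so such female values rest on a single WT library. Of the markers of the labelled tissue, 15 of 16 CA1 and CA3 pyramidal cell genes were tested, with a mean of 4.67 to 4.87 over the libraries. So were 10 of 10 dentate granule cell genes, with a mean of 3.28 to 3.87. No deposited value was 0, so presence in every library sets no gene apart.

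All 6 transcripts had values above 0 in every library, as did all 13951 genes. They also passed the filter of a mean abundance of at least 1, as did 13858 of the 13951. Ptpa and Rad23b were the most abundant, with mean abundances of 76.8 and 76.3 (log2 6.28 and 6.27), above 91.4% of the 13858 genes tested. Kcnn2 followed with a mean abundance of 33.7 (log2 5.10), then Ring1 with 15.5 (log2 4.04) and Cdkn1b with 14.7 (log2 3.97). Arhgef15 was the lowest, with an abundance of 3.30 (log2 2.09), above only 17.4% of the genes tested. Ptpa and Rad23b could not be ordered, since Ptpa was the higher in 6 of 12 libraries, nor could Ring1 and Cdkn1b, where Ring1 was the higher in 8 of 12. The other neighbours in this order had ranges that did not overlap in any library.

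**Figure D1:**
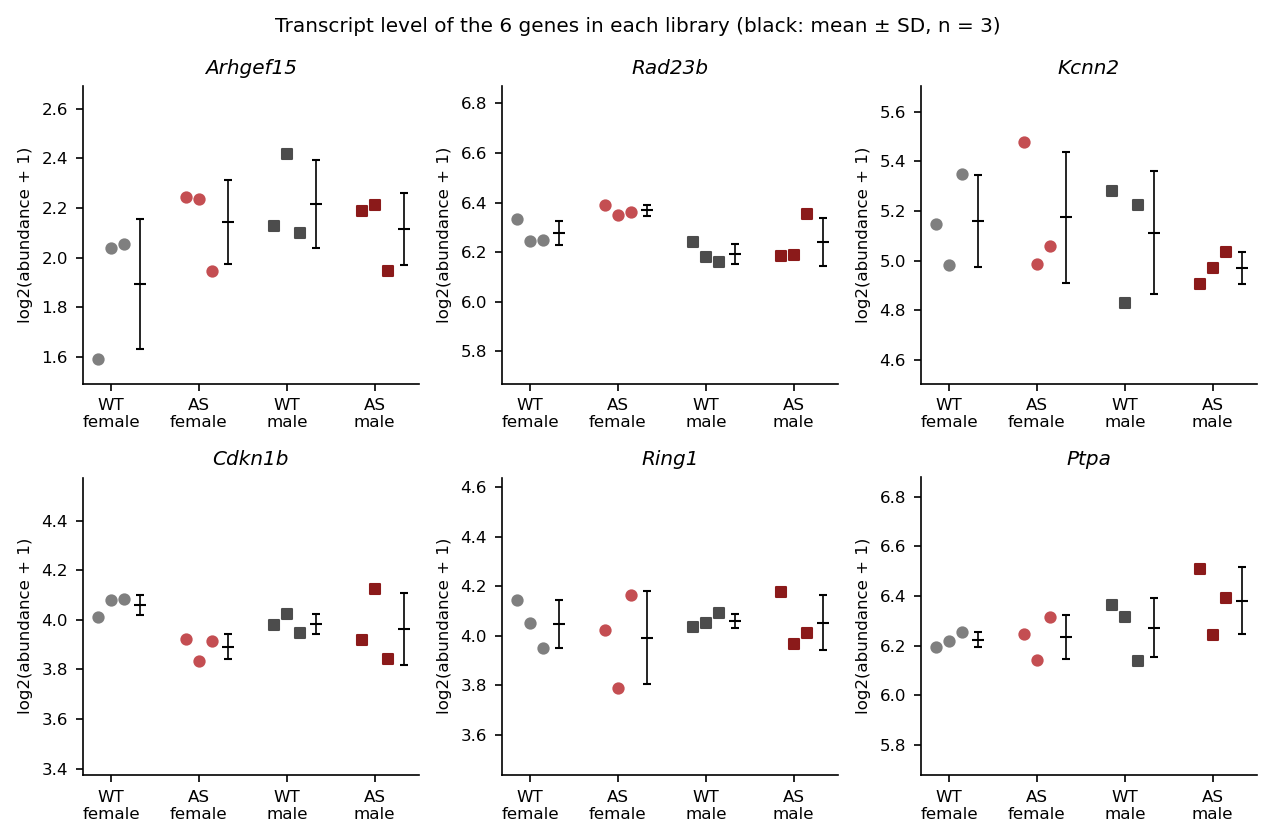
The 6 panels plot log2(abundance + 1) of each gene in each library, by group, on axes of equal span that do not start at 0; black bars are the mean ± SD of 3 libraries. The AS and WT females separate for Rad23b and Cdkn1b, WT female 1 is the lowest library for Arhgef15 at 1.59, and in the males no gene separates by genotype.

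The 6 transcripts differed in how far they spread between replicates. Rad23b had a standard deviation within groups of 0.06 on the log2 scale, at or above that of only 4.06% of all genes tested and of 11.3% of the 1015 genes within 0.5 of its mean level. Cdkn1b had 0.08, at or above 15.8% of the genes of like level. Kcnn2 was the loosest for its level: its standard deviation of 0.21 was at or above that of 92.7% of the 2305 genes within 0.5 of its mean, whose median was 0.11. Arhgef15 (0.19), Ring1 (0.12) and Ptpa (0.10) lay near the middle of their neighbours, at 50.8%, 46.1% and 50.9%. From the lowest to the highest library, the ratio of abundance plus 1 was 1.17 for Rad23b and 1.77 for Arhgef15, with the other 4 between.

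Ube3a itself, the gene of the disorder, was not called in any comparison of the genotypes. Its level was 4.34, 4.09 and 4.30 in WT females and 4.16, 4.25 and 3.95 in AS females. In males it was 4.02, 3.99 and 4.21 in WT and 3.78, 4.31 and 3.99 in AS, so that the genotypes overlapped in each sex. Over both sexes AS minus WT was −0.09 ± 0.09 (SE, 6 against 6 libraries; limma adjusted p = 0.976). Antisense genes overlap 27.3% of the exonic bases of Ube3a, the labels do not say whether strand was used in the counting, and the AS allele is not stated, so this transcript does not check the labels.

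Arhgef15 (ENSMUSG00000052921; GRCm38 chr11:68943155-68957480, minus strand) has 16 exon blocks, none shared with another annotated gene. Its level was 1.59, 2.04 and 2.06 in WT females and 2.24, 2.24 and 1.95 in AS females. It was 2.13, 2.42 and 2.10 in WT males and 2.19, 2.21 and 1.95 in AS males. WT female 1 lay apart below the other 11 libraries, and the genotypes overlapped in both sexes. AS minus WT was 0.25 ± 0.16 in females (SE; 95% interval −0.10 to 0.60; limma adjusted p = 1.00) and −0.10 ± 0.16 in males (adjusted p = 0.943). Over both sexes it was 0.07 ± 0.11 (−0.17 to 0.32; adjusted p = 0.977). The female difference rested on WT female 1, the library low in Xist: without it the difference was 0.10, and that over both sexes was −0.0017. Without the 4 libraries high in choroid plexus genes, which include WT female 1, the difference was 0.04 in females and −0.05 over both sexes. In males it was −0.02 without AS male 3, −0.16 without WT male 3 and 0.0031 without WT male 2.

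Rad23b (ENSMUSG00000028426; GRCm38 chr4:55350043-55392237, plus strand) spans 10 exon blocks and shares neither exonic bases nor any 50-base stretch of its transcripts with other genes. It stood at 6.33, 6.25 and 6.25 in WT females and at 6.39, 6.35 and 6.36 in AS females. All 3 AS females lay above all 3 WT females, the nearest values being 6.35 and 6.33. In males it stood at 6.24, 6.18 and 6.16 in WT and at 6.18, 6.19 and 6.36 in AS, where AS male 3 was high and the other 2 lay among the WT values. AS minus WT was 0.09 ± 0.06 in females (−0.04 to 0.22; limma adjusted p = 1.00) and 0.05 ± 0.06 in males (adjusted p = 0.905). Over both sexes it was 0.07 ± 0.04, an interval of −1.43% to 11.9% of abundance plus 1 (adjusted p = 0.920), and without AS male 3 it was 0.04. The male difference was −0.0064 without AS male 3 and 0.08 without AS male 2, the 1 male library high in choroid plexus genes.

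Kcnn2 (ENSMUSG00000054477; GRCm38 chr18:45268860-45686024, plus strand) is the longest of the 6 loci at 417165 bases and has 14 exon blocks. Of its exonic bases, 8.13% are shared with 2 genes on the opposite strand. One of these, the antisense gene A330093E20Rik, is in the table at a mean abundance of 2.00 beside 33.7 for Kcnn2; the part of its reads in the Kcnn2 value was not tested. Kcnn2 was at 5.15, 4.98 and 5.35 in WT females and 5.48, 4.99 and 5.06 in AS females. It was at 5.28, 4.83 and 5.22 in WT males and 4.91, 4.97 and 5.04 in AS males. Within 3 of the groups single libraries differed by more than the genotypes did, and only the AS males lay close together. AS minus WT was 0.02 ± 0.15 in females (adjusted p = 1.00), −0.14 ± 0.15 in males (adjusted p = 0.896) and −0.06 ± 0.10 over both sexes (−0.29 to 0.17; limma adjusted p = 0.977). Without the 4 libraries high in choroid plexus genes it turned to −0.08 in females and was −0.11 over both sexes. Leaving out 1 library moved the female value between −0.14 (without AS female 1) and 0.11 (without WT female 3), and the male value between −0.28 (without WT male 2) and −0.06 (without WT male 1).

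Cdkn1b (ENSMUSG00000003031; GRCm38 chr6:134920401-134925513, plus strand) is a compact gene of 2 exon blocks that shares no exonic bases with other genes. Its level was 4.01, 4.08 and 4.09 in WT females and 3.92, 3.84 and 3.92 in AS females, so that every AS female lay below every WT female. In males it was 3.98, 4.02 and 3.95 in WT and 3.92, 4.12 and 3.84 in AS, and AS male 2 was the highest of all 12 libraries. AS minus WT in females was −0.17 ± 0.08 (limma adjusted p = 1.00). Ranked by p it came 439th of the 13858 genes, the nearest of the 6 to the top in any comparison. The difference was −0.02 ± 0.08 in males (adjusted p = 0.974) and −0.09 ± 0.05 over both sexes, an interval of −13.7% to 1.68% of abundance plus 1 (adjusted p = 0.920). In females it was about as large without WT female 1 (−0.19). Without the 4 libraries high in choroid plexus genes it was −0.17, with WT female 3 the only WT female left. Over both sexes it was −0.14 without AS male 2, 1 of those 4 libraries (limma adjusted p = 0.596), and the male difference was then −0.10, but 0.04 without AS male 3.

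Ring1 (ENSMUSG00000024325; GRCm38 chr17:34020792-34024680, minus strand) has 5 exon blocks, with no exonic bases in common with another gene. It was measured at 4.14, 4.05 and 3.95 in WT females and 4.02, 3.79 and 4.16 in AS females. The male values were 4.03, 4.05 and 4.09 in WT and 4.18, 3.97 and 4.01 in AS. The genotypes overlapped in both sexes, with AS female 2 the lowest library. AS minus WT was −0.06 ± 0.10 in females (adjusted p = 1.00), −0.01 ± 0.10 in males (adjusted p = 0.993) and −0.03 ± 0.07 over both sexes (−0.18 to 0.12; limma adjusted p = 0.982). Without the 4 libraries high in choroid plexus genes all 3 turned in sign, to 0.14, 0.04 and 0.09, with WT female 3 the only WT female left. Without AS female 2 alone, 1 of those 4, it was 0.04 in females and 0.02 over both sexes, and without AS male 2 it was 0.04 in males.

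Ptpa (ENSMUSG00000039515; GRCm38 chr2:30416039-30447806, plus strand), with 13 exon blocks, was at 6.19, 6.22 and 6.26 in WT females and 6.25, 6.14 and 6.32 in AS females. In males it was at 6.36, 6.31 and 6.14 in WT and 6.51, 6.24 and 6.39 in AS. AS male 1 was the highest library, and the genotypes overlapped in both sexes. AS minus WT was 0.01 ± 0.08 in females (adjusted p = 1.00), 0.11 ± 0.08 in males (adjusted p = 0.837) and 0.06 ± 0.06 over both sexes (−0.07 to 0.19; limma adjusted p = 0.963). The male difference was 0.04 without WT male 3, 0.04 without AS male 1 and 0.18 without AS male 2; over both sexes the same omissions gave 0.03, 0.03 and 0.09. In females it turned to −0.03 without AS female 3 and to −0.0032 without WT female 1, and was 0.06 without AS female 2.

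None of the 6 transcripts passed the test of AS against WT in females, in males or over both sexes (limma, Benjamini-Hochberg adjusted p under 0.05), where 0.0% of the 13858 genes did in each of the 3 comparisons. At an unadjusted p under 0.05, 0 of 6 passed in each, against 3.16% of all genes in females (438 genes), 6.42% in males and 5.35% over both sexes. In females 1 of the 6 (Rad23b) had all AS above all WT libraries and 1 (Cdkn1b) all below, where 9.01% of all genes did not overlap in either direction. In males 0 of 6 did not overlap, against 11.2% of all genes, and over both sexes 0 of 6, against 0.361%. The median size of the 6 differences, regardless of sign, was 0.07 in each of the 3 comparisons, beside 0.07 for all genes in females, 0.09 in males and 0.06 over both sexes. The widest intervals over both sexes ran from −18.3% (the lower bound of Kcnn2) to 24.8% (the upper bound of Arhgef15) of abundance plus 1, and no difference within a gene's interval is excluded by these libraries.

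**Figure D2:**
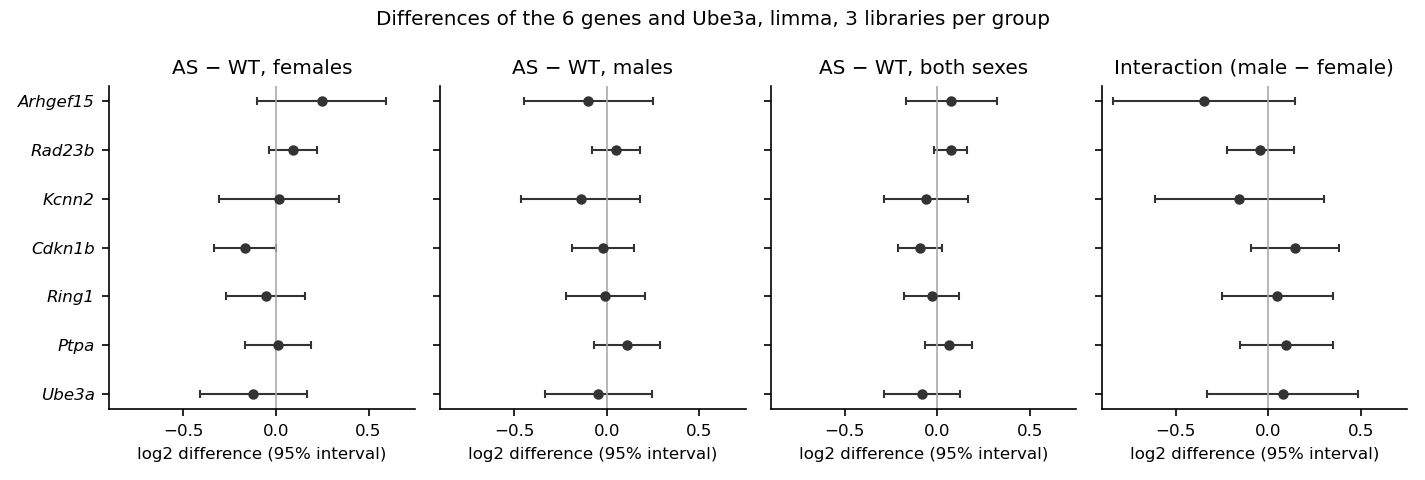
Each point is the log2 difference of a gene with its 95% interval from limma (horizontal axis), for AS minus WT in females, males and both sexes and for the male minus the female difference. Every interval includes 0, and that of Cdkn1b in females only just, with its bounds at −0.34 and 0.00; Arhgef15 and Kcnn2 have the widest intervals of the 6.

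No transcript differed in its response between the sexes by the interaction test, in which 0.0% of all genes passed and 0 of 6 against 3.77% had an unadjusted p under 0.05. The largest was Arhgef15, at −0.35 ± 0.22 (male minus female difference; −0.84 to 0.15; limma adjusted p = 0.987), which was −0.20 without WT female 1 and −0.19 without the 4 libraries high in choroid plexus genes. Kcnn2 was at −0.16 ± 0.21, and −0.0046 without AS female 1 but −0.30 without WT male 2. Cdkn1b was at 0.15 ± 0.11, and 0.06 without AS male 2. The other 3 lay between −0.04 and 0.10.

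Males and females of the same genotype were compared next. Arhgef15 was 0.32 ± 0.16 higher in WT males than in WT females, with no overlap between the groups (limma adjusted p = 0.673), but 0.17 higher without WT female 1, the library at the male level of Xist. Rad23b was at −0.08 ± 0.06 in the same comparison, also without overlap (adjusted p = 0.757). For Rad23b WT female 1 was the highest WT female at 6.33, and the nearest values were 6.25 in WT female 2 and 6.24 in WT male 1. None of the 6 passed the adjusted test there, where 0.0289% of all genes did (4 genes), and 2 of 6 did not overlap, against 14.7% of all genes. Between AS males and AS females Rad23b was at −0.13 ± 0.06 (limma adjusted p = 1.00), Ptpa at 0.15 ± 0.08 (0.08 without AS male 1) and Kcnn2 at −0.20 ± 0.15 (−0.05 without AS female 1). None passed, where 0.0361% of all genes did, and 0 of 6 did not overlap, against 8.47% of all genes.

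The genes other than Rad23b were then set beside close relatives or complex partners. Kcnn2 was above the SK channel genes Kcnn1 and Kcnn3 in 12 of 12 libraries, at 7.52 and 10.3 times their mean abundance. Kcnn1 was at −0.18 ± 0.08 over both sexes (limma adjusted p = 0.914) and Kcnn3 at 0.05 ± 0.11.

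Among the CDK inhibitors Cdkn1b was above Cdkn1a and Cdkn1c in 12 of 12 libraries, 2.73 and 5.29 times by mean abundance. Cdkn1c ranged from 1.10 to 2.79 between libraries, and its difference in females, −0.72 ± 0.41, and Cdkn1a's of −0.20 ± 0.24 over both sexes did not pass. The 4 libraries with the highest Cdkn1c, at 2.14 to 2.79, were the 4 high in choroid plexus genes, of which 2 are WT and 1 AS among the females. Ring1 and Rnf2, whose proteins are the alternative E3 subunits of Polycomb repressive complex 1, were at nearly the same abundance, 15.5 and 16.5, and Ring1 was the higher in 5 of 12 libraries. Rnf2 was at 0.06 ± 0.07 over both sexes (adjusted p = 0.976). Ngef, encoding the first ephexin, was 12.6 times as abundant as Arhgef15, at −0.07 ± 0.10 over both sexes. The PP2A scaffold Ppp2r1a was 3.09 times as abundant as Ptpa, while the catalytic genes Ppp2ca and Ppp2cb were below Ptpa in 12 of 12 libraries. Their differences over both sexes were 0.04 ± 0.06, −0.0034 ± 0.03 and 0.05 ± 0.06.

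**Figure D3:**
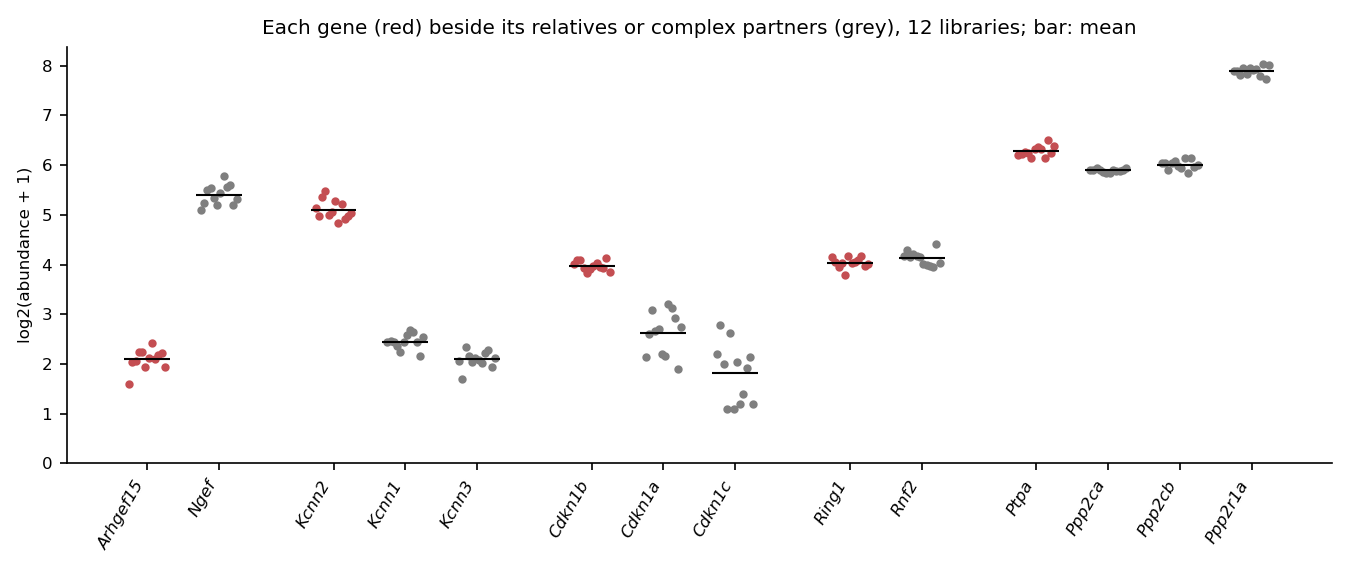
The vertical axis is log2(abundance + 1) in each of 12 libraries (points) with the mean (bar), for 5 of the 6 genes in red and their relatives or partners in grey. Kcnn2 stands above Kcnn1 and Kcnn3, and Ring1 and Rnf2 overlap.

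Other reported UBE3A substrates and partners, and lists of genes that work with each of the 6 proteins, were described over both sexes. In each list 0 genes passed the adjusted test of AS against WT, and for all genes tested the median difference was 0.0053. The list of 42 other reported UBE3A substrates and partners includes Ube3a itself, which was below 0. Of the 42 genes, 35 were tested, 22 above 0 and 13 below, with a median of 0.02. Of these, 2 had an unadjusted p under 0.05, a share near the 5.35% of all genes tested. They were Psmc2, a proteasome ATPase subunit, at 0.10 ± 0.04 (limma adjusted p = 0.893), and Ube2l3, the E2 enzyme that serves UBE3A, at 0.09 ± 0.04 (adjusted p = 0.913). Mapk6 was at −0.08 ± 0.09.

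Of 25 tested genes of the ephexin family and Eph-ephrin-RhoA signalling, the pathway of Arhgef15, 13 were above 0 and 12 below (median 0.0095). Efnb3, an ephrin ligand, was at 0.27 ± 0.10 (adjusted p = 0.893) and Epha6, an Eph receptor, at 0.14 ± 0.09. The exchange factor genes Arhgef26 and Arhgef19 were at −0.13 ± 0.08 and −0.12 ± 0.08. Of 20 shuttle and DNA damage recognition partners of Rad23b, 13 were above 0 and 7 below (median 0.03). The shuttle factor gene Ubqln2 was at 0.08 ± 0.04, the damage sensor gene Ddb2 at −0.20 ± 0.08 (adjusted p = 0.893) and the deglycosylase gene Ngly1, whose protein binds RAD23B, at −0.05 ± 0.06.

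Of 19 tested SK channel and gating partner genes, 16 were above 0 and 3 below (median 0.05). A limma unadjusted p under 0.05 was found for 2 of them, Actn2 and Kcnn1, beside 5.35% of all genes tested. Whether the list leans to 1 side was not tested. Actn2, an actin-binding alpha-actinin gene, was the highest of the list at 0.21 ± 0.08 (limma adjusted p = 0.893). The SK channel gene Kcnn1 was the lowest at −0.18 ± 0.08 (limma adjusted p = 0.914). Csnk2a1, a subunit gene of casein kinase 2, was at −0.01 ± 0.04. Casein kinase 2 serves many proteins besides SK channels.

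Of 19 tested CDK inhibitor and G1 genes, 13 were above 0 and 6 below (median 0.02), and here single genes lay furthest from 0. For 2 of the 19, Ccne2 and Ccnd2, the limma unadjusted p was under 0.05, beside 5.35% of all genes tested. The lowest was Cdkn1c, at −0.26 ± 0.29, the gene whose level was highest in the libraries high in choroid plexus genes. The cyclin gene Ccne2, with a mean abundance of only 3.38, was the highest at 0.35 ± 0.10 (limma adjusted p = 0.661). Ccnd2 was at −0.20 ± 0.06 (adjusted p = 0.785), Ccnd3 at −0.14 ± 0.08 and Skp1a, a subunit gene of SCF ubiquitin ligases, at 0.05 ± 0.04. Of 23 tested Polycomb repressive complex 1 genes, 13 were above 0 and 10 below (median 0.0045). This list, the ephexin list and the Rad23b partner list each had 1 gene with a limma unadjusted p under 0.05. Bmi1, a partner subunit gene of the RING1 proteins, was at 0.18 ± 0.07 (adjusted p = 0.893), Pcgf1 at −0.09 ± 0.06 and Pcgf2 at −0.06 ± 0.11.

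Of 26 tested PP2A genes, 14 were above 0 and 12 below (median 0.0067), and 3 had an unadjusted p under 0.05, beside 5.35% of all genes tested. They were Lcmt1, which encodes the PP2A methyltransferase, at 0.10 ± 0.04 (limma adjusted p = 0.905), the regulatory subunit gene Ppp2r3a at 0.13 ± 0.06 (adjusted p = 0.914) and Igbp1, for a binder of the free catalytic subunit, at −0.15 ± 0.06 (adjusted p = 0.893). Anp32a, for a PP2A inhibitor, was at −0.08 ± 0.04 over both sexes and at −0.19 ± 0.05 in females (adjusted p = 1.00).

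**Figure D4:**
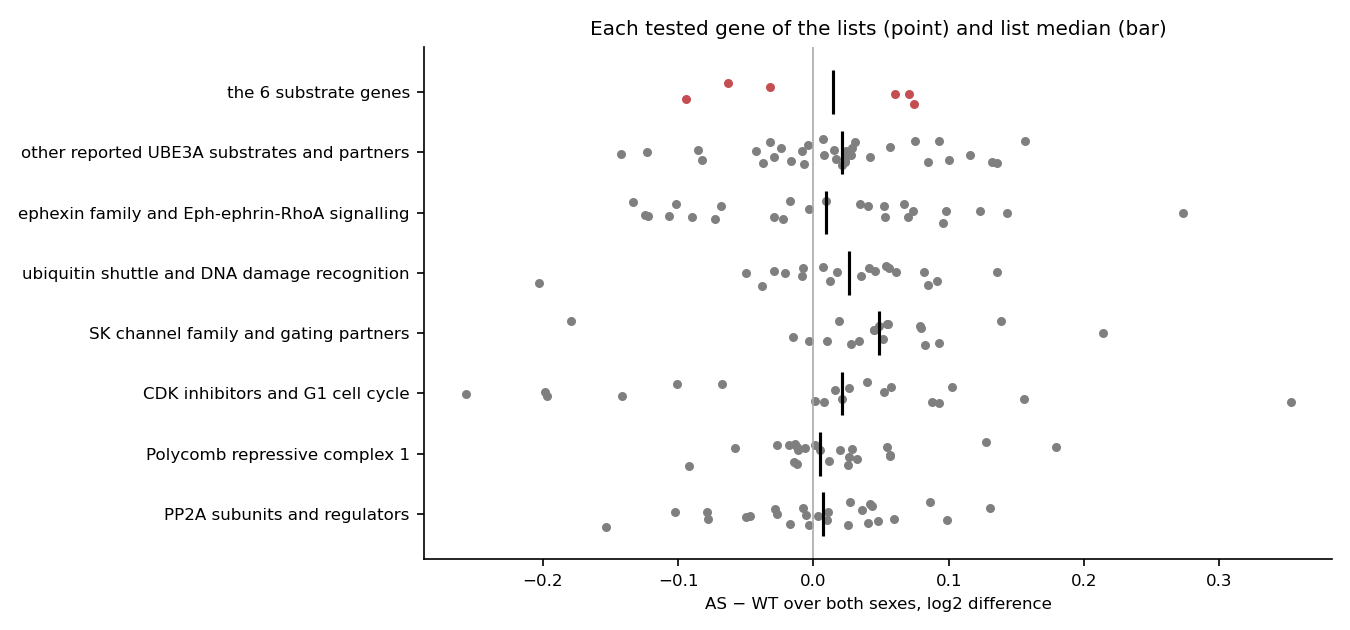
Each point is a tested gene's AS minus WT difference over both sexes on the log2 scale (horizontal axis), one line per list, with the list median as a bar; vertical scatter within a line carries no meaning. The 6 substrate genes span −0.09 to 0.07, and the medians of the 7 other lists lie between 0.0045 and 0.05.

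Because whole tissue was measured, fewer cells of a type and less RNA per cell cannot be told apart, so the levels were related to the mean of 10 cell type marker lists over the 12 libraries (60 relations, permutation p adjusted over all 60). The choroid plexus list was left out, since its means fall into separate clusters. Arhgef15 fell as the mean of the CA1 and CA3 pyramidal list rose (Pearson r = −0.83, permutation p = 0.000690, adjusted p = 0.0414; Spearman rho = −0.80, p = 0.00305, adjusted p = 0.183). Leaving out the 2 libraries farthest from the median list mean (WT male 2 and AS male 2) left r at −0.83 (adjusted p = 0.180). With the group means removed r was −0.77 (adjusted p = 0.324), without WT female 1 it was −0.79, and with the list median in place of its mean it was −0.65 (adjusted p = 0.492). The relation passed the threshold under the first of these measures only. It covers a narrow span of the list, 4.67 to 4.87. Against the excitatory neuron list, which shares Fibcd1, Wfs1 and Spink8 with the pyramidal list, Arhgef15 had r = 0.08 (permutation adjusted p = 0.930). Against the dentate granule cell list its r was −0.45 (permutation adjusted p = 0.703).

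Arhgef15 is also known from brain endothelial cells; against the endothelial list, whose 22 tested genes summed to 244 to 349.8 in abundance over all libraries, its r was −0.28 (permutation adjusted p = 0.801). Rad23b against the microglia list gave a relation that missed the threshold (r = 0.74, permutation p = 0.00607, adjusted p = 0.182; rho = 0.72), with r at 0.62 with the group means removed. The 13 microglia genes summed to an abundance of 337 to 366 in WT females and 341 to 421 in AS females. Cdkn1b ran the other way against the same list (r = −0.64, adjusted p = 0.533). In females 11 of the 13 microglia genes were above 0 and 2 below in AS minus WT (median 0.08), and none passed the test. Other lists lay further from 0 in the same comparison. The choroid plexus list lay furthest, with 22 of 22 genes below 0 (median −0.98). Next, 14 of 16 oligodendrocyte genes were above 0 (median 0.20) and 15 of 18 interneuron genes below (median −0.18). Of the dentate granule cell genes 6 of 10 were above 0 (median 0.09). None of these genes passed. Over the 12 libraries Rad23b had r = −0.29 and Cdkn1b r = 0.28 against the interneuron list, and 0.27 and 0.03 against the oligodendrocyte list (permutation adjusted p of 0.801 or more). The part of these cell types in the Rad23b and Cdkn1b values was not tested.

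**Figure D5:**
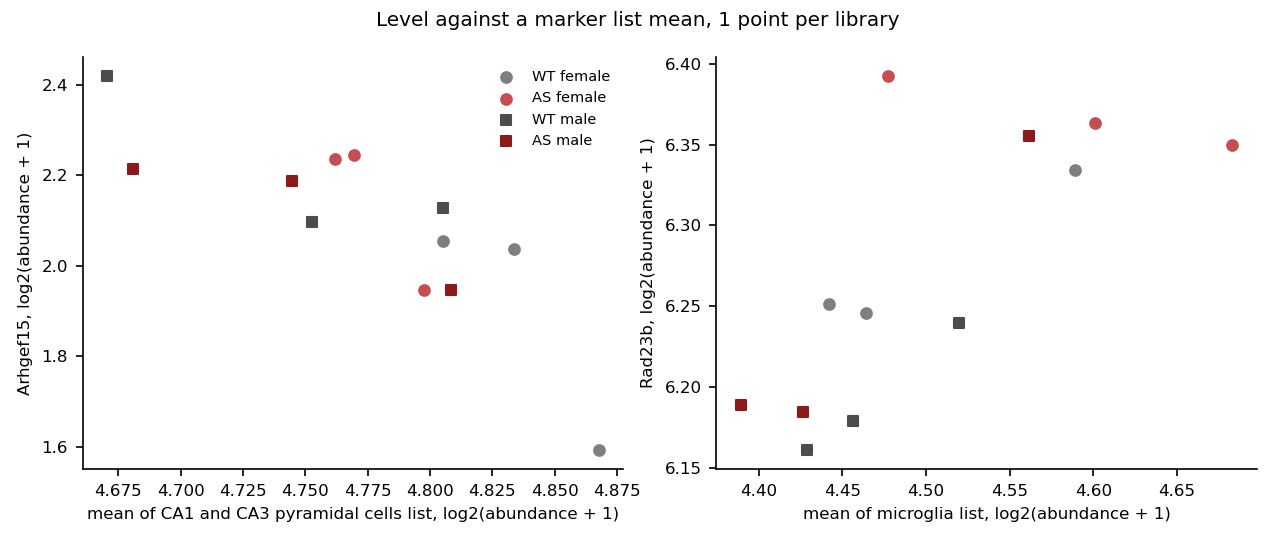
Each point is 1 library, coloured by genotype and shaped by sex, with the mean of a marker list on the horizontal axis and the gene's level on the vertical axis, both as log2(abundance + 1) and neither starting at 0. Arhgef15 runs downward against the pyramidal list, with WT female 1 at the lower right, and Rad23b upward against the microglia list.

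The 6 transcripts did not move as a set from library to library: the 15 pairwise correlations over 12 libraries ranged from −0.52 (Rad23b and Cdkn1b) to 0.44 (Ring1 and Ptpa). The protein-coding genes whose levels followed each most closely over the 12 libraries were different for each of the 6. They were Stmn1 (r = 0.92), Pbx3 (0.89) and Ipcef1 (0.88) for Arhgef15, and Sec14l2 (0.87) and Clint1 (0.86) for Rad23b. For Kcnn2 they were Sncg (0.85), Sub1 (0.85) and Foxp1 (0.84), and for Cdkn1b Mphosph10 (0.94), Smn1 (0.89) and Commd3 (0.87). Ring1 was closest to Pagr1a (0.88), Trmt1 (0.87) and Zfp775 (0.85), and Ptpa to Gabarapl1 (0.92), Ctnnbip1 (0.91) and Dnhd1 (0.90). These are the highest of all coding genes over 12 libraries and are given as a description, since the libraries share groups and normalization.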

How the data were processed

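The labels give 3 libraries per group, prepared from polyadenylated RNA with an unstated strand setting and sequenced in pairs. Per the submitters' processing notes the authors used Trimmomatic, Bowtie2 and RSEM with GRCm38 (mm10), with no versions. The deposited values, 0.100 to 10.08, were read as the natural log of an RSEM abundance plus 1, from their range; whether TPM or FPKM, and the base, are not given in the sources used here. Base 2 would shrink every log2 difference by the same factor and lower the abundances and their ratios: the Ptpa mean would be 19.4 and not 76.8, Ngef over Arhgef15 7.12 and not 12.6, and Kcnn2 over Kcnn1 4.74 and not 7.52. Values between 2 and 5 of the first library all (100%) recur in every column, but 16.2% of those between 0 and 1. Library totals differ (547558 to 587587 in base e). The authors' table was therefore read as quantile-normalized between 2 and 5 but not between 0 and 1, and values above 5 were not checked. No counts were used and depth is unknown.

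Values were converted to log2(abundance + 1). Genes with a mean abundance of at least 1 (13858; 93 left out) entered 1 limma 3.58.1 fit (R 4.3.3) of the 4 group means with a variance trend, on 8 residual degrees of freedom, with Benjamini-Hochberg adjustment over all genes; the procedure was tested on simulated data. Standard errors are limma's. Correlations used 100000 permutations (exact within groups). Gene positions and overlaps came from GENCODE M21 (GRCm38). Named were the 6 genes, Ube3a, up to 2 genes per direction of each list by smallest unadjusted p over both sexes, close paralogues, PP2A core genes and the 3 most alike coding genes. Members and lists were chosen with earlier results of these data known. Alternatives changed the added constant, filter, fitted groups, log base, normalization, weights, prior and libraries. Some genes that this rule names are not reported here.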

Additional observations from a re-analysis of the deposited data

Results flagged for a closer look

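Arhgef15 is listed because its AS minus WT difference ran in opposite directions in the sexes: all 3 AS females lay above the mean of the WT females and all 3 AS males below the mean of the WT males. The male minus the female difference was −0.35 on the log2 scale; tested as an interaction in limma, it did not pass (adjusted p = 0.987), and it was −0.20 without WT female 1, the library low in Xist.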

How the results depend on the processing

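Over 22 alternatives none of the 6 genes passed the adjusted threshold (lowest limma adjusted p 0.521, Cdkn1b over both sexes with library quality weights). Of 774 values 738 kept their direction and 36 changed sign, 25 of them on leaving out 1 library. Many of the 738 could not change sign. Changes of filter, fitted groups, log base or prior leave a difference as it is or only rescale it. Leaving out a library outside the groups compared also leaves it as it is. Arhgef15 has no value at a mean abundance of at least 5. Genes called in AS against WT were 0 in the full fit. On leaving out 1 library they numbered 0 to 1 in females, in males and in the interaction and 0 to 2 over both sexes. In females 1 was called without WT female 1, WT female 3 or AS female 1. In males 1 was called without WT male 2. Over both sexes 2 were called without WT male 2 and 1 without WT female 1. In the interaction 1 was called without WT female 1, WT female 3 or WT male 2. Without the 4 libraries high in choroid plexus genes WT female 3 is the only WT female left. No count of genes called in AS against WT or in the interaction is therefore given for that setting. The WT sex calls listed next for that setting set the WT males against WT female 3 alone. Their number is not read as a change from the full fit. WT sex calls (4) became 2 at a mean of at least 5, 7 without the 4 libraries and 4 to 8 leaving out 1 (8 without WT female 1). AS sex calls (5) became 2 with an added constant of 0.1, 3 at a mean of at least 5, 3 with only the groups compared and 2 to 8 leaving out 1 (8 without WT female 1, 3 without AS female 3 or AS male 1, 2 without AS male 2 or 3). The single adjusted relation became 0 with the list median, without the 2 farthest libraries and within groups. Without the 4 libraries signs turned for Kcnn2 (−0.082) and Ring1 (0.14) in females, Ring1 in males (0.035), Arhgef15 (−0.054) and Ring1 (0.089) over both sexes, Ring1 in the interaction (−0.11) and Cdkn1b between AS sexes (−0.040). With quality weights they turned for Ring1 in males (0.015), Kcnn2 (0.0062) and Ring1 (−0.00056) between WT sexes and Cdkn1b between AS sexes (−0.0040). Leaving out 1 library, female ranges were −0.029 to 0.058 (Ptpa), −0.14 to 0.11 (Kcnn2) and −0.14 to 0.045 (Ring1). Male ranges were −0.16 to 0.0031 (Arhgef15), −0.069 to 0.035 (Ring1), −0.0064 to 0.079 (Rad23b) and −0.10 to 0.039 (Cdkn1b). Over both sexes they were −0.0017 to 0.13 (Arhgef15) and −0.075 to 0.019 (Ring1), and in the interaction −0.052 to 0.13 (Ring1). Between WT sexes Kcnn2 ran from −0.14 to 0.095 and Ring1 from −0.038 to 0.058, and between AS sexes Arhgef15 from −0.12 to 0.057, Ring1 from −0.042 to 0.15 and Cdkn1b from −0.011 to 0.13. The causes were not tested. No paired analysis was possible because replicate numbers follow deposition order and pair nothing.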
